A study of Homo sapiens with 6 samples.

Results

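A set of 6 protein-coding genes was followed in CAOV2 ovarian cancer cells after TAZ silencing. The set covers lipid metabolism, an epithelial membrane protein and the production of reactive oxygen. They are ANGPTL4, EMP1, CYBB, CYBA, RAC1 and DUOX2. They were taken by symbol from the deposited table, and all 6 were found once among its 17211 genes. The samples were 3 libraries in which TAZ had been silenced by siRNA (siTAZ) and 3 given the non-targeting AllStars Negative Control siRNA (siNT). CAOV2 is named in the labels both as a cell line and as primary ovarian cancer cells, with no genotype beyond the siRNA. Both groups had serum-supplemented DMEM, 100000 cells seeded in a well, 100 pmol of siRNA and 6 µL of Lipofectamine RNAiMAX for 2 days, and were collected at day 3. Each arm rests on 1 siRNA product, so an effect of TAZ and an effect of that siRNA on other transcripts cannot be told apart.

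TAZ is the coactivator that the Hippo kinases restrain, and it reaches DNA through TEAD factors. ANGPTL4 encodes a secreted protein that inactivates lipoprotein lipase, and EMP1 encodes a small membrane protein with several membrane-spanning segments. NADPH oxidases move electrons from NADPH across a membrane to oxygen and so make superoxide or hydrogen peroxide. In NADPH oxidase 2 the catalytic subunit is gp91phox, the product of CYBB, which is held stable by p22phox, the product of CYBA. Its activity needs cytosolic subunits and a RAC GTPase. DUOX2 is a dual oxidase that makes hydrogen peroxide in thyroid and mucosal epithelium and needs the maturation factor DUOXA2. The study asked whether TAZ acts through ANGPTL4 and NADPH oxidase 2 on ferroptosis, a cell death driven by lipid peroxides.

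The libraries held 25478595 to 34488196 reads in genes. Levels below are deposited values, which are reads divided by the size factor of the library. WWTR1, which encodes TAZ, was at 4217 to 4359 in siNT and 242 to 280 in siTAZ. Of 9 genes of TAZ, YAP1, the TEAD factors and their readouts, 7 fell, 0 rose and 2 missed the threshold. The falls include WWTR1, the target of the siRNA, and 27.5% of all genes tested fell. Of the readouts, ANKRD1 and CCN1 fell. CCN2 did not, at 5690 ± 53.9 in siNT and 5974 ± 125 in siTAZ (limma adjusted p = 0.18). Of 10 markers of ovarian carcinoma epithelium, 9 were listed, and their summed level was 96455 to 104910 in siNT and 92429 to 100691 in siTAZ. Keratins made up most of that sum and its members moved in opposite directions, with 4 higher, 3 lower and 2 that missed the threshold. EPCAM rose 2.72-fold, CDH1 2.27-fold and KRT19 1.59-fold, and KRT7 fell 2.66-fold, while PAX8 (28.8 ± 13.9 in siNT) and MUC16 (11.9 ± 3.67) were scarce and WT1 was not listed. Of 12 markers of phagocytes and other leukocytes, 8 were not listed, among them PTPRC and SPI1. Of the other marker lists, fibroblast markers (6 of 9 listed) summed to 5609 to 6399 in siNT and 6614 to 7502 in siTAZ. Among these fibroblast markers 3 rose, 1 fell and 2 missed the threshold. LUM held most of their sum, at 3797 ± 362 in siNT and 3885 ± 358 in siTAZ, and did not pass. Adipocyte markers (4 of 6 listed) summed to 1220 to 1262 in siNT and 1582 to 1794 in siTAZ. FABP4, at 1105 ± 44.9 and 1139 ± 147, held most of the adipocyte sum, and the other 3 rose: PLIN4 9.19-fold from 30.9 ± 1.03, CIDEC 2.44-fold from 106 ± 21.6 and PLIN1 3.04-fold from 3.29 ± 1.79. The PLIN1 call was lost with DESeq2 (adjusted p = 0.063) and without siTAZ replicate 2 (limma adjusted p = 0.062). These 3 lipid droplet genes rose, but PLIN2, counted below among the PPAR targets, fell 1.43-fold to 3975 ± 123 (limma adjusted p = 7.2e-08). The PPAR and lipoprotein genes described below went both ways. The part of these 3 genes in those results was not tested. Of 7 endothelial markers only ESAM was listed, and it fell from 1774 ± 99.9 in siNT to 1165 ± 109 in siTAZ (limma adjusted p = 7.4e-07). DCN and FAP of fibroblasts and ADIPOQ and LEP of adipocytes were not listed. In RNA from whole cultures, fewer cells that express a gene and less of its RNA per cell cannot be told apart.

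All 6 genes were tested and passed limma's test, 3 lower and 3 higher in siTAZ. Of all 17204 genes tested, 55.8% passed, 28.3% as higher and 27.5% as lower, so passing does not set these genes apart. The share that passed was 40.8% among genes with a mean of 10 to 100, where CYBB and DUOX2 lie, and 68.2% among those of 1000 to 10000, where the other 4 lie. ANGPTL4, EMP1 and RAC1 fell, while CYBA, CYBB and DUOX2 rose. The groups did not overlap for any of the 6, and they did not overlap for 61.4% of all genes tested. The median log2 fold change of all genes tested was -0.0013.

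**Figure D1:**
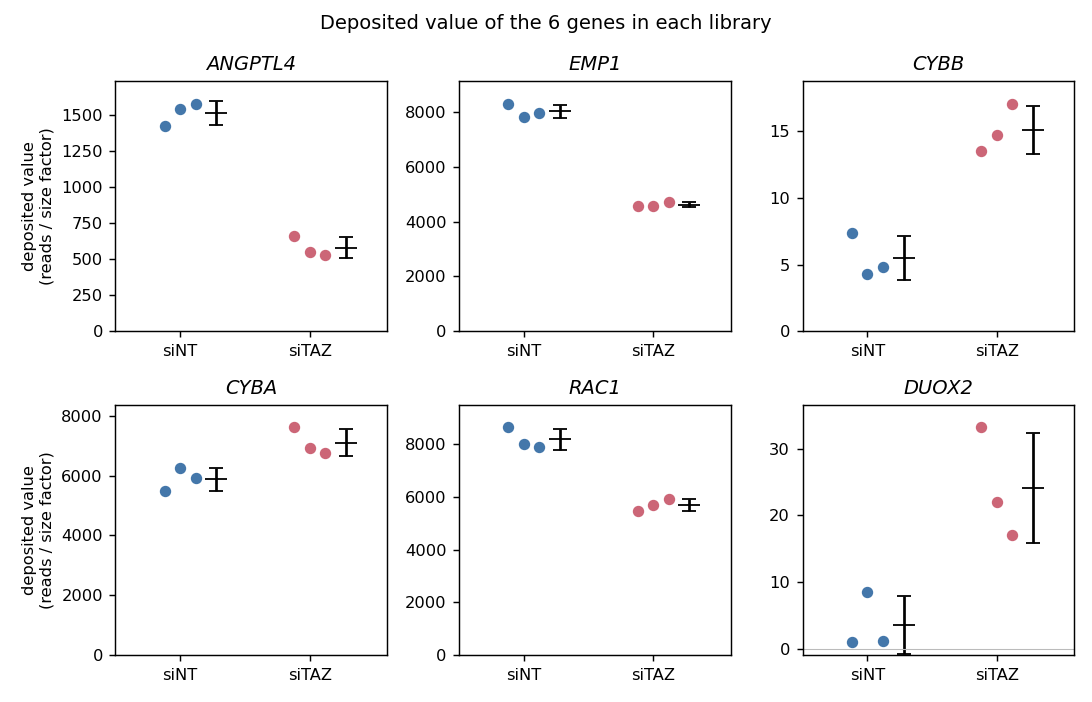
Deposited values (reads divided by the size factor, linear axes) of the 6 genes in the 3 siNT libraries (blue) and the 3 siTAZ libraries (red), with the mean and SD in black beside each group. The siTAZ points lie below all siNT points for ANGPTL4, EMP1 and RAC1 and above them for CYBB, CYBA and DUOX2.

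ANGPTL4 (ENSG00000167772) on chromosome 19 had the steepest fall of the 3 genes that fell. It was at 1422, 1546 and 1579 in siNT replicates 1, 2 and 3 and at 664, 548 and 527 in siTAZ replicates 1, 2 and 3. The lowest siNT library was above the highest siTAZ library, and siTAZ replicate 1 was the highest of its group. The mean fell 2.61-fold, from 1516 ± 82.9 to 580 ± 73.7 (SD, n = 3 per group). On the log2(value + 1) scale the change was -1.39 (SE 0.08, 95% interval -1.56 to -1.22, limma adjusted p = 2.3e-10). By this change ANGPTL4 stood at rank 300 of the 4730 genes that fell.

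Of its family of 11 angiopoietin-like and angiopoietin genes, 5 were listed, and 4 rose while ANGPTL4 fell. Among all genes tested, 28.3% rose and 27.5% fell. Counts for this family and for the lists below stand beside these shares, with no test of the difference. ANGPTL2, a secreted relative linked to inflammation, rose from 753 ± 34.1 to 930 ± 63.7 (limma adjusted p = 0.00089). ANGPT1, the activating ligand of the TEK receptor, rose 1.55-fold, from 389 ± 43.1 to 605 ± 61.2. ANGPTL4 was the most abundant member in siNT by reads per exon length, at 611 per kb beside 194 for ANGPTL2, and in siTAZ the means were 234 and 239 per kb. With the filter of 1 CPM in 3 libraries, 2 of the 4 rises were no longer tested.

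Around ANGPTL4 in the lipoprotein lipase pathway, 15 of 19 genes were listed and tested. Of these 10 rose (28.3% of all genes tested did), 3 fell and 2 missed the threshold (median log2 fold change 0.71). LPL itself, the enzyme that ANGPTL4 inactivates, was not listed in the deposited table, nor was its anchor GPIHBP1. LRP1, a large endocytic receptor of lipoproteins and proteases, rose 2.84-fold, from 1780 ± 222 to 5051 ± 309. SORL1, a sorting receptor, rose 1.68-fold, from 10329 ± 276 to 17368 ± 368. Proprotein convertases, the family that cleaves ANGPTL4, went both ways. PCSK5 rose 2.38-fold, from 545 ± 20.1 to 1299 ± 42.4, and PCSK6 rose to 1097 ± 62.4, while FURIN fell from 15053 ± 662 to 10028 ± 692, and PCSK7 fell 1.24-fold to 1109 ± 22.8. Limma adjusted p-values of LRP1, SORL1 and PCSK5 were 2.6e-11, 3.2e-10 and 3.5e-11.

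Surface partners of ANGPTL4 changed in both directions. Of 6 listed genes, 3 rose, 2 fell and 1 did not pass. Integrin beta 1 (ITGB1) rose 1.53-fold, from 13321 ± 668 to 20396 ± 695. The heparan sulfate proteoglycan SDC4 fell from 4995 ± 124 to 3425 ± 66.4, and NRP2, a co-receptor of semaphorins and VEGF, fell from 1086 ± 24.9 to 671 ± 0.162 (limma adjusted p = 2.6e-08 for each).

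ANGPTL4 is a known target of PPAR receptors and is also induced by hypoxia and TGF-beta. Of 13 listed regulators of these kinds, 4 rose, 7 fell and 2 missed the threshold (median log2 fold change -0.16). PPARA, the fatty acid sensor of liver, rose 1.92-fold, from 206 ± 10.7 to 396 ± 19.6. EPAS1, the hypoxia-inducible factor HIF-2 alpha, fell 2.37-fold, from 6704 ± 198 to 2833 ± 37.1 (limma adjusted p = 1.3e-12). SMAD3, which carries TGF-beta signals, fell from 9645 ± 237 to 7510 ± 158. Of 21 PPAR targets other than ANGPTL4, 8 rose, 3 fell and 10 missed the threshold (median 0.13). FABP1, a liver fatty acid binding protein, rose 7.52-fold to 561 ± 93.8, and PDK4, which restrains pyruvate dehydrogenase, rose 2.36-fold to 683 ± 45.9. The count of PPAR targets that fell was 1 under total count scaling, with the replicate block and without siTAZ replicate 1.

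EMP1 (ENSG00000134531) on chromosome 12 fell in a narrow range. It was at 8308, 7829 and 7963 in siNT and at 4579, 4573 and 4733 in siTAZ. The siTAZ libraries differed from one another by far less than the gap to siNT. The mean fell 1.74-fold, from 8033 ± 247 to 4628 ± 90.6, with a log2 fold change of -0.80 (SE 0.04, 95% interval -0.89 to -0.70, limma adjusted p = 2.2e-10). By size of change it was at rank 1016 of 4730 falls.

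Of the listed relatives of EMP1, PMP22, EMP3 and PERP fell with it, and EMP2 did not pass. Of 7 genes of the EMP and PMP22 family and its neighbours in sequence, 5 were listed, EMP1 included. Counting EMP1 itself, 4 fell, 0 rose and 1 did not pass, beside 27.5% of all genes that fell. PMP22, a peripheral myelin protein also made in epithelium, fell 2.49-fold, from 1938 ± 61.2 to 777 ± 20.0 (limma adjusted p = 6.0e-12). EMP3, another epithelial membrane protein, fell 1.61-fold, from 7126 ± 268 to 4420 ± 253, and PERP, a desmosome-associated p53 target, fell 1.27-fold to 8151 ± 377. EMP2 was at 169 ± 12.9 before and 170 ± 4.67 after silencing (log2 fold change 0.01, limma adjusted p = 0.92).

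The regions before the RefSeq starts of ANGPTL4, EMP1 and CYBB are shown because ANGPTL4 and EMP1 fell together while CYBB rose. Each runs 5′ to 3′ on the gene's strand (all 3 are on the plus strand) in GRCh38.p14, from 250 bases before the start, and stops before any base that GENCODE annotates as exon. Capitals mark matches to the motifs searched on both strands: GGAATG (TEAD), TGANTCA (AP-1), a pair of AGGTCA with N between them (PPAR with RXR), ACGTG (HIF), GGGCGG (SP1), CCAAT (NF-Y) and TATAAA.
ANGPTL4, chr19:8363905-8364150: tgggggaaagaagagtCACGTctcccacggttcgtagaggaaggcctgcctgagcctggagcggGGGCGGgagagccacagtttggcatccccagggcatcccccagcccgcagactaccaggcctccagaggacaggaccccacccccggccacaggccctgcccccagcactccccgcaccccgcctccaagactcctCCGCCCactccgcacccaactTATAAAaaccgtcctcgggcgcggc
EMP1, chr12:13196476-13196715: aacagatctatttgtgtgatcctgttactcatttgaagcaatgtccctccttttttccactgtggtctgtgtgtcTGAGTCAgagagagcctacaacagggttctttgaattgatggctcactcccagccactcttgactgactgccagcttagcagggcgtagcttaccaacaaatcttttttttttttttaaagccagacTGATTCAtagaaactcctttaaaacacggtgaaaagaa
CYBB, chrX:37779809-37780010: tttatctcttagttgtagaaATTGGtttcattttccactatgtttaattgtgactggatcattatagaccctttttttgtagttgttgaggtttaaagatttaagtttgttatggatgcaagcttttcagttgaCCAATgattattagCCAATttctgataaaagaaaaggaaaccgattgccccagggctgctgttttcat

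In the 250 bases before the start, the TEAD letters GGAATG were in none of the 5 members with an entry in the promoter table, which are ANGPTL4, EMP1, CYBB, CYBA and DUOX2. They were in 11.9% of the 35116 promoters in that table. RAC1 had no entry. The pair of AGGTCA was in none of the 5 either, and in 0.0171% of all promoters. EMP1 held 2 AP-1 matches, TGAGTCA at 175 to 169 and TGATTCA at 48 to 42 bases before the start, and 6.57% of all promoters held at least 1. It also held 1 SP1 match at 9 to 4 bases, which lies in annotated exon and is not in the sequence shown. ANGPTL4 held a TATAAA 29 to 24 bases before its start (10.7% of promoters held one), 2 SP1 matches and 1 HIF match, of which the last stood in 18.5% of promoters. CYBB held 4 CCAAT matches (32.0% of promoters held 1 or more). The match at 42 to 38 bases lies in annotated exon and is not in the sequence shown. CYBA held 6 GGGCGG matches (42.6%), and those at 37 to 32 and 32 to 27 bases overlap. All but the match at 130 to 125 bases lie in the 99 bases of the CYBA window annotated as exon. The DUOX2 window, which held 1 HIF and 1 TATAAA match, is annotated exon of DUOX2 or DUOXA2 over all its 250 bases. The windows differed in base composition, with 68.8% G and C in ANGPTL4, 73.6% in CYBA, 59.6% in DUOX2, 42.4% in EMP1 and 34.0% in CYBB, against a median of 58.0% over all promoters. A match is a run of letters and no measure of binding.

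CYBB (ENSG00000165168) on chromosome X was near the lower limit of what these libraries can measure. It had 7, 4 and 4 reads in siNT and 13, 16 and 20 reads in siTAZ. These are deposited values of 7.33, 4.28 and 4.83 in siNT and 13.5, 14.7 and 17.1 in siTAZ, and every siTAZ library was above every siNT library. The log2 fold change was 1.33 (SE 0.35, 95% interval 0.59 to 2.08, limma adjusted p = 0.0039), at rank 700 of 4874 rises. By summed reads, 15 in siNT and 49 in siTAZ, the ratio after size factors was 2.75, with an exact 95% interval of 1.52 to 5.29 that covers counting error only. With a pseudocount of 10 the log2 fold change was 0.70.

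Leukocyte markers matter here because CYBB is best known from phagocytes, and 2 of the 4 that were listed rose. Of the 4 markers listed of 12, LYZ (lysozyme) rose from 20.9 ± 1.92 to 127 ± 18.8 and CD14 from 61.9 ± 8.08 to 115 ± 1.36. CD68 was at 58.3 ± 6.14 in siNT and 52.4 ± 6.48 in siTAZ and ITGAM at 13.7 ± 3.51 and 18.0 ± 2.9, and neither passed. The summed level of the 4 was 151 to 161 in siNT and 283 to 339 in siTAZ, and its part in the rise of CYBB was not tested. PTPRC, SPI1 and CSF1R, the defining leukocyte genes, were not listed.

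**Figure D2:**
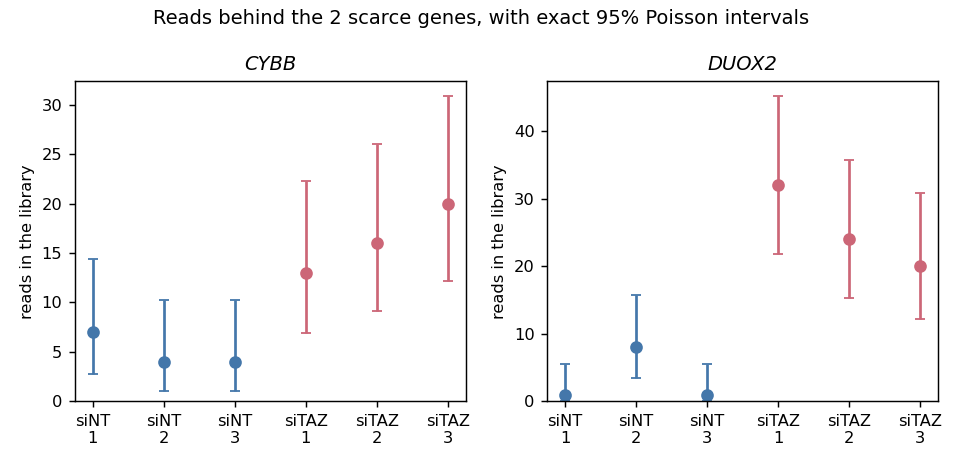
Whole reads in each library for CYBB and DUOX2 (linear axes from 0), with exact 95% Poisson intervals, siNT in blue and siTAZ in red. CYBB runs from 4 to 7 reads in siNT and 13 to 20 in siTAZ, and DUOX2 from 1 to 8 and 20 to 32.

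CYBA (ENSG00000051523) on chromosome 16, the partner that stabilises gp91phox, was abundant and rose modestly. It was at 5476, 6244 and 5912 in siNT and at 7618, 6946 and 6755 in siTAZ. The lowest siTAZ library was above the highest siNT library by less than the range within either group. The siNT mean of 5878 ± 385 and the siTAZ mean of 7106 ± 453 differ 1.21-fold (log2 fold change 0.27, SE 0.06, 95% interval 0.15 to 0.39, limma adjusted p = 0.00053). By rank it was 3864 of 4874 rises.

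DUOX2 (ENSG00000140279) on chromosome 15 had the largest fold change of the 6 and the fewest reads in siNT. It had 1, 8 and 1 reads in siNT and 32, 24 and 20 in siTAZ. In deposited values that is 1.05, 8.55 and 1.21 against 33.2, 22.0 and 17.1. Replicate 2 held 8 of the 10 siNT reads, and no siNT library reached the lowest siTAZ library. The log2 fold change was 2.79 (SE 0.52, 95% interval 1.70 to 3.88, limma adjusted p = 0.00020). It was 1.34 with a pseudocount of 10 and 3.51 without siNT replicate 2. By summed reads the ratio was 6.41, with an exact 95% interval of 3.30 to 13.9 for counting error. Of the 50-base stretches of its longest annotated transcript, 9.21% also occur in transcripts of other genes, mainly DUOX1, which was not listed.

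DUOXA2, the maturation factor of DUOX2, was scarcer still, with 3 reads in siNT against 21 in siTAZ. After size factors the siTAZ sum was 5.90 times the siNT sum (exact 95% interval 1.76 to 30.9). Its limma adjusted p was 0.015, but it rose to 0.053 when siNT replicate 3 was left out and to 0.093 when siTAZ replicate 1 was, and ran from 0.010 to 0.093 over 16 alternatives. DUOXA2 and DUOX2 lie on opposite strands and share 24 bases of annotated exon, and whether strand was used in counting was not given in the sources used here. DUOXA1, the other maturation factor, was at 11.7 ± 1.64 in siNT and 8.57 ± 3.2 in siTAZ (limma adjusted p = 0.29). DUOXA2, DUOXA1, NOXA1, NOXO1, CYBC1, RAC2 and RAC3 were chosen for description after their values were seen. So were CCN2, FURIN, PCSK6, PCSK7, PLIN2, PAK4, BRK1, WASF2, NCKAP1 and the cell type markers named.

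RAC1 (ENSG00000136238) on chromosome 7, the GTPase that activates NADPH oxidase and drives membrane ruffling, fell. It was at 8633, 8019 and 7899 in siNT and at 5473, 5694 and 5925 in siTAZ. The groups were separated by several times the range within siTAZ. RAC1 means were 8184 ± 393 and 5697 ± 226, a 1.44-fold fall (log2 fold change -0.52, SE 0.05, 95% interval -0.63 to -0.42, limma adjusted p = 1.1e-07), at rank 1846 of 4730 falls. Of the 50-base stretches of its longest transcript, 17.1% also occur in other genes, mostly the pseudogene RAC1P2, so part of its reads can be shared. RAC2, the RAC of blood cells, fell from 1455 ± 79.4 to 1116 ± 77.0 (limma adjusted p = 6.2e-05). RAC3 was at 441 ± 32.1 and 442 ± 20.5 (limma adjusted p = 0.96).

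Counted with CYBB, DUOX2, CYBA and RAC1, the NADPH oxidase machinery was mixed. Of 7 catalytic subunits, CYBB and DUOX2 were listed and both rose, while NOX1, NOX3, NOX4, NOX5 and DUOX1 were not listed. Of 15 partner and maturation genes, 13 were listed, of which 5 rose, 5 fell and 3 missed the threshold (median log2 fold change -0.19). CYBA is among these rises and RAC1 among these falls. Among all genes tested, 28.3% rose and 27.5% fell. NOXA1, an activator that works beside NOX1, rose from 12.1 ± 4.36 to 36.2 ± 9.33 (limma adjusted p = 0.00024). NOXO1, its organizer partner, was at 24.1 ± 5.45 and 17.8 ± 3.61 and did not pass (limma adjusted p = 0.21).

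NCF1 and NCF4, which encode p47phox and p40phox, were not listed. CYBC1, a chaperone for the CYBB and CYBA dimer, fell from 1077 ± 32.5 to 942 ± 8.88. POLDIP2, a partner of NOX4 with p22phox, fell 1.38-fold, from 17964 ± 740 to 12974 ± 549. The scaffolds SH3PXD2A and SH3PXD2B, relatives of p47phox found in invadopodia, rose 1.56-fold and 1.47-fold, to 859 ± 14.9 and 680 ± 43.4. With the filter of 1 CPM in 3 libraries, neither CYBB nor DUOX2 was tested, and 3 partner genes rose in place of 5.

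**Figure D3:**
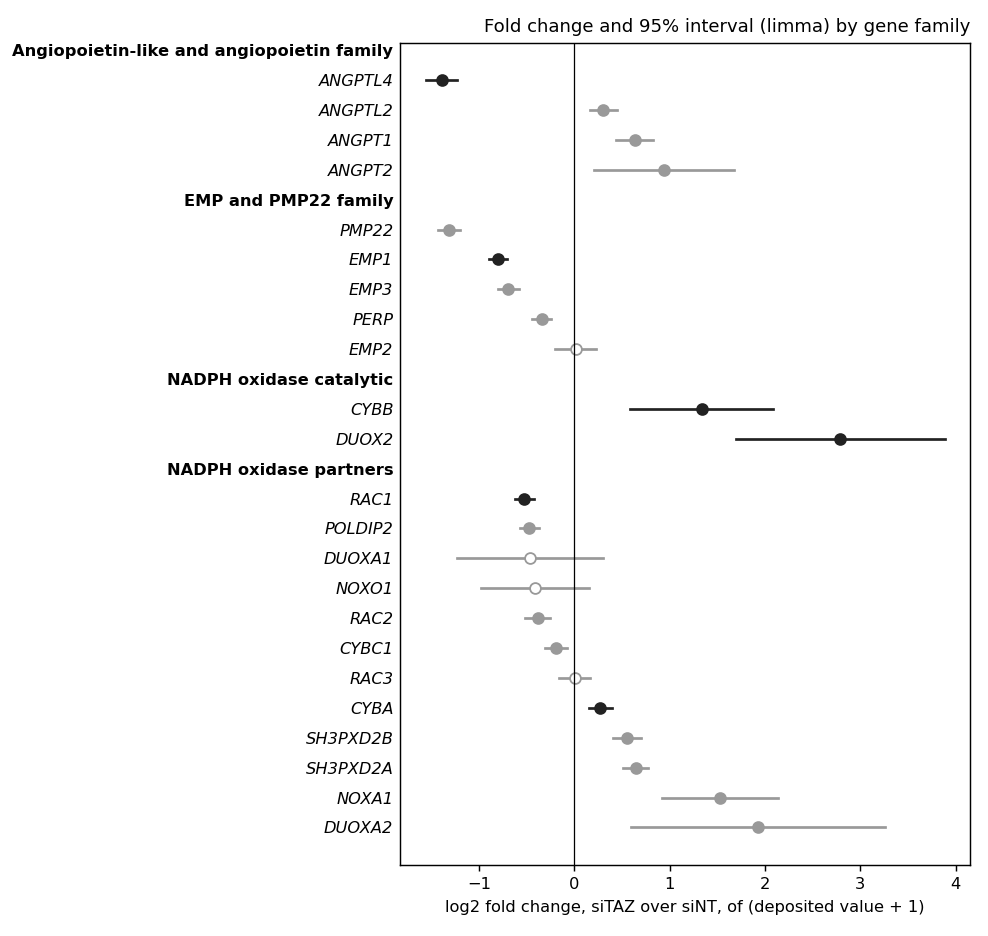
Log2 fold change (siTAZ over siNT, of the deposited value + 1) with limma's 95% interval for genes of 4 families. Black marks ANGPTL4, EMP1 and the 4 oxidase genes described in full, grey their relatives, and open circles genes that did not pass. ANGPTL4 lies below 0 and its relatives shown lie above, while CYBB and CYBA lie above 0 and RAC1 below.

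Genes around RAC1 are given beside the shares of all genes tested, 28.3% higher and 27.5% lower, with no test of the difference. Of 24 exchange factors listed, which load RAC with GTP, 14 rose, 6 fell and 4 missed the threshold (median log2 fold change 0.24). KALRN, a relative of TRIO, rose 4.65-fold, from 164 ± 14.1 to 764 ± 9.55. TRIO fell from 12007 ± 357 to 8287 ± 67.1. VAV2 rose 1.61-fold, from 1241 ± 85.4 to 1999 ± 87.4. Of 11 RAC inhibitors listed, 7 rose, 2 fell and 2 missed the threshold (median 0.24). The chimaerins CHN1 and CHN2, which switch RAC off, rose 1.39-fold and 1.87-fold, and ARHGAP24 rose 2.51-fold from 58.4 ± 5.95. Of 18 RAC effectors, 6 rose, 4 fell and 8 missed the threshold (median -0.02). IQGAP2, a scaffold of the cell cortex, rose 2.79-fold to 715 ± 91.1, and PAK4, a kinase that RAC and CDC42 signal to, fell 1.49-fold to 3282 ± 204. Subunits of the WAVE complex for actin branching differed: CYFIP2 and WASF1 rose 2.29-fold and 1.76-fold, BRK1 fell 1.31-fold, and WASF2 and NCKAP1 did not pass (limma adjusted p = 0.45 and 0.51).

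Genes that supply NADPH and genes that remove the products of its oxidases changed in both directions, as did all genes, of which 55.8% passed (68.2% of those with a mean level of 1000 to 10000), and their counts do not set these groups apart. Of 14 listed genes of NADPH supply, 7 rose, 4 fell and 3 missed the threshold (median log2 fold change 0.06). The rises were 4 with the replicate block and 4 without siTAZ replicate 3. PGLS, of the pentose phosphate pathway, rose 1.61-fold to 2961 ± 184, and the isocitrate dehydrogenases IDH1 and IDH2 rose 1.48-fold and 1.54-fold. Of 21 listed genes that remove superoxide and peroxide, 6 rose, 9 fell and 6 missed the threshold (median -0.03). PRDX1, an abundant peroxiredoxin, fell from 21468 ± 700 to 13604 ± 355, and the thioredoxin reductases TXNRD1 and TXNRD2 each fell 1.53-fold. Each of these named genes passed limma's test.

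**Figure D4:**
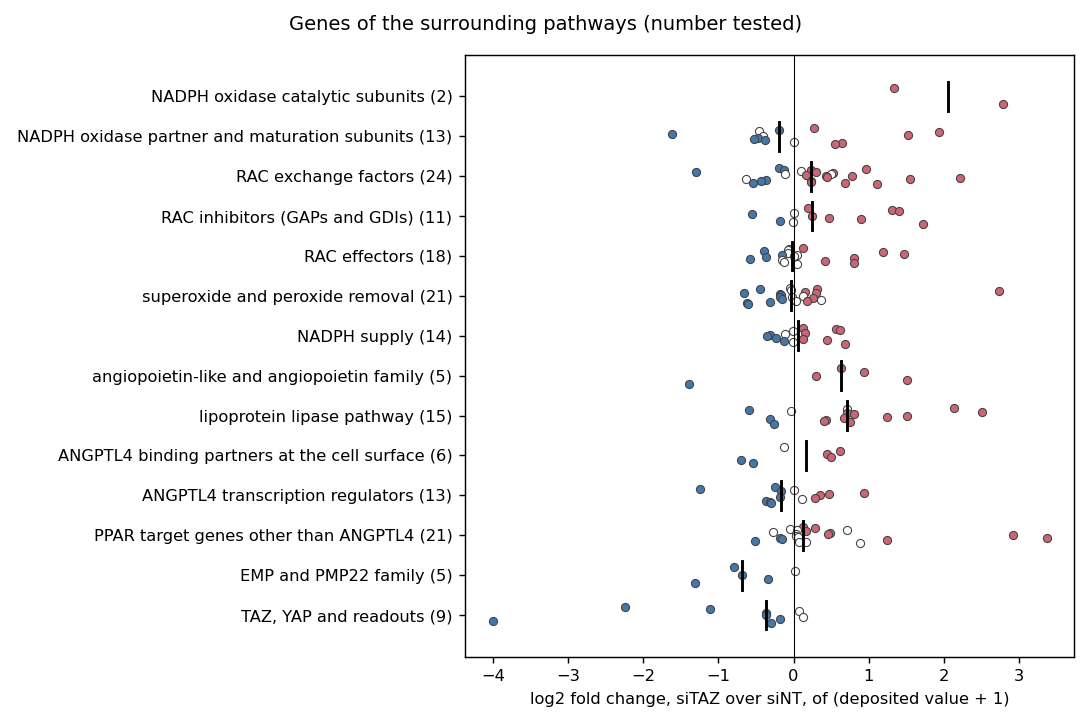
Log2 fold change (siTAZ over siNT, of the deposited value + 1) of each tested gene of 14 lists around the 6 genes, with the number tested in brackets. Red genes rose, blue genes fell, open circles did not pass, and the black bar is the list's median, which is 0.71 for the lipoprotein lipase pathway and -0.69 for the EMP and PMP22 family.

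For a comparison of levels between genes, deposited values were divided by the length of the annotated exons. In siNT the order was RAC1 (2628 per kb), CYBA (1751), EMP1 (1025), ANGPTL4 (611), CYBB (1.24) and DUOX2 (0.366), and no pair of neighbours overlapped between libraries. In siTAZ CYBA (2117 per kb) stood above RAC1 (1830), followed by EMP1 (590), ANGPTL4 (234), CYBB (3.41) and DUOX2 (2.45). The CYBA libraries at 2012 to 2269 per kb did not overlap those of RAC1 at 1757 to 1903. The longest transcript is shorter than the exons counted here, at 1415 against 3357 bases for CYBA and 2323 against 3114 for RAC1. The order of RAC1 and CYBA in siNT therefore depends on which length is used. CYBB at 3.05 to 3.86 and DUOX2 at 1.73 to 3.38 did overlap. In both groups the catalytic subunit CYBB was far scarcer per exon length than its partner CYBA.

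**Figure D5:**
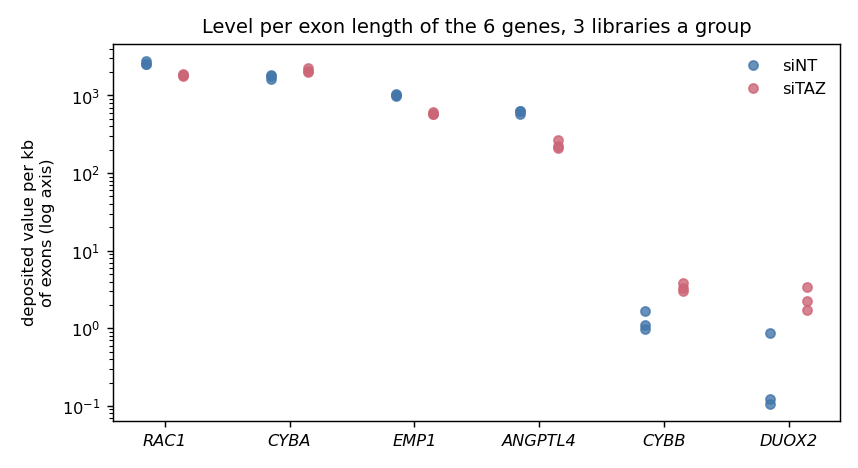
Deposited value per kb of annotated exon (log axis) of the 6 genes in each of the 3 siNT (blue) and 3 siTAZ (red) libraries. RAC1, CYBA, EMP1 and ANGPTL4 lie above 200 per kb in every library, and CYBB and DUOX2 below 4.

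Genes whose profiles over the 6 libraries came closest to those of the 4 abundant members were found by the root mean square difference of centred log2 values among 15459 others. KRT7, a keratin of simple epithelium, was closest to ANGPTL4 (0.026), followed by the unnamed ENSG00000255509 (0.031). AMIGO2 and CD55 were closest to EMP1 (0.024 and 0.029), COMMD3 and SAR1A to RAC1 (0.013 and 0.018), and SH3BP5L and TBC1D17 to CYBA (both 0.020). KRT7 fell from 22847 ± 1266 to 8604 ± 879, a log2 fold change of -1.41 beside -1.39 for ANGPTL4. That closeness follows from how the matches were picked. CYBB and DUOX2 were too scarce to be matched in this way.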

How the data were processed

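RNA was sequenced from 6 samples, 3 per group, placed by their titles. HISAT2, HTSeq, DESeq2 and FastQC with the hg19 build are what the submitters' processing notes name, with versions, annotation, strand setting and gene filter not given in the sources used here. All deposited values are a signal, reads divided by 1 size factor per library (0.828 to 1.17), as found from the values: 100% are whole multiples of 1 read within 0.001. Titles call the samples biological replicates, but nothing says they came from separate cultures, so p-values reflect only how these samples spread, which may be technical. Replicates differed beyond sampling noise (chi-square of reads over its degrees of freedom 2.64 to 8.10), so no library is a copy.

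Limma 3.58.1 in R 4.3.3, with an intensity trend, was fitted to log2(deposited value + 1) of the 17204 genes whose mean was 1 or more, with Benjamini-Hochberg adjustment over all of them and a threshold of 0.05. The added 1 changes the fold changes of low genes most. For CYBB the log2 fold change was 1.33 on this scale beside 1.46 with DESeq2, and for DUOX2 2.79 beside 2.71. EdgeR 4.0.16 on the recovered reads called 9630 genes, and limma 9604. DESeq2 1.42.0 and voom were further alternatives. Of the 17211 identifiers, 16662 were named from a table of identifiers and 81 from GENCODE release 29, whose exon lengths (GRCh38) were also used. Promoters are from RefSeq (GRCh38.p14). The fits were tested on simulated data in which far fewer genes changed than here, and none of those was scarce. That test does not speak to the calls of CYBB and DUOX2.

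Named genes are the 6 members, WWTR1, up to 3 called genes per list by smallest adjusted p, and the 2 closest profiles for members with a mean of at least 100. Members and lists were chosen with earlier results of these data known. A gene that is not listed may still have had reads, because the gene filter is unknown and only 1751 listed genes have a mean under 10. Some genes that the rule takes or that the lists count are not reported here by name.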

Additional observations from a re-analysis of the deposited data

How the results depend on the processing

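The direction and the call of all 6 genes held under each of 17 alternatives, or 16 for CYBB and DUOX2, which the filter of 1 CPM in 3 libraries leaves out. Leaving out 1 library at a time gave log2 fold changes of -1.49 to -1.33 for ANGPTL4, -0.81 to -0.77 for EMP1, -0.55 to -0.48 for RAC1, 0.22 to 0.32 for CYBA, 1.20 to 1.53 for CYBB and 2.40 to 3.51 for DUOX2. The largest adjusted p over all alternatives was 0.028 for CYBB (DESeq2) and 0.0030 for CYBA (limma without 1 library). The sizes for CYBB and DUOX2 depend on the pseudocount, at 0.70 and 1.34 with 10 and 1.41 and 3.04 with 0.5. Over all genes, 4299 to 5561 were called higher and 4046 to 4789 lower, the highest share of higher calls (57.9%) being under total count scaling, which shifts the median of all genes by 0.053. Same-numbered siNT and siTAZ libraries did not deviate together (r across genes -0.53, -0.30 and -0.087), and no library correlated best with its own number. With the replicate block limma called 8701 genes in place of 9604, the log2 fold changes of the 6 genes were those of the unpaired fit (-1.39 for ANGPTL4, 1.33 for CYBB), and all 6 passed. The counts of list members and the values of most named genes other than the 6 were put through the same alternatives after the data were seen. The count of angiopoietin-family rises was 2 with the 1 CPM filter in place of 4, and CCN2 made 1 rise among the TAZ and YAP genes, in place of 0, under total count scaling. Depth limits CYBB and DUOX2, whose siNT totals are 15 and 10 reads.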
